A study of Mus musculus with 9 samples.

Results

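The ER stress and integrated stress response of the diabetic renal cortex was described through 10 genes: Atf4, Ddit3, Trib3, Chac1, Asns, Xbp1, Herpud1, Sdf2l1, Calr and Pdia4. They were found by their symbols in the mRNA files, which list 21950 genes, and all 10 were among the 14537 genes with a mean level of at least 0.1 FPKM. FPKM is the number of fragments per kilobase of transcript scaled by the number of fragments mapped in each library, here summed over the transcripts of a gene. The libraries came from the renal cortex of 9 male mice of the C57BL/KsJ strain at 15 weeks of age, 1 library per mouse and 3 mice per group. Control mice were nondiabetic db/m littermates, for which no treatment is given in the sources used here. The dbdb mice were db/db (BKS.Cg-Dock7m+/+Leprdb/Nju), carried the Leprdb mutation of the leptin receptor on both chromosomes, and received vehicle. The dbR mice had the same genotype and received rosiglitazone, a thiazolidinedione drug that activates PPARγ, at 20 mg/kg/day by gavage for 8 weeks from 7 weeks of age. No lean mice were given rosiglitazone, so the drug was compared only on the db/db background. The leptin receptor is mutated in all tissues of db/db mice, so the cortex values carry obesity, diabetes and loss of leptin signalling together.

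Secreted and membrane proteins fold in the endoplasmic reticulum (ER). When unfolded proteins accumulate there, the sensors IRE1, PERK and ATF6 start the unfolded protein response, which raises chaperones, folding enzymes and the machinery of ER-associated degradation (ERAD), the route by which misfolded proteins are moved to the cytosol and destroyed. PERK, GCN2, HRI and PKR each phosphorylate eIF2α, which lowers general translation and favours translation of ATF4, and ATF4 then induces amino acid and cell death genes such as Asns, Ddit3, Trib3 and Chac1. ATF4 and eIF2α are controlled largely at the protein level and Xbp1 by a splice made by IRE1, and none of these steps is read by a summed FPKM.

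Promoter stretches of Herpud1, Calr and Chac1 are printed here because each holds a known ER stress or ATF4 element, in a gene that rose in dbdb vs. control (Herpud1) and in 2 that did not pass there (Calr and Chac1). Sequences are from RefSeq on build GRCm38.p6, whose promoters run from 250 bases before the start site over 300 bases in all, and all 10 genes matched an entry. Each is written 5′ to 3′ on the strand of its gene, and capitals mark the matched elements.
Herpud1, chr8:94386297-94386407, plus strand: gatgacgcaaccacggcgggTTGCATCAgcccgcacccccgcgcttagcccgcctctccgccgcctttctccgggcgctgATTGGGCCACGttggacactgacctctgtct
Calr, chr8:84847055-84847113, minus strand: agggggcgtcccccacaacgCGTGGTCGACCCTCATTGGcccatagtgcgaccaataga
Chac1, chr2:119351029-119351076, plus strand: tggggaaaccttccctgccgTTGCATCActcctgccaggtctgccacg
The second capital run of Herpud1 is the element called ERSE-II, searched as ATTGG, 1 base of any kind and CCACG, and it lies 52 to 42 bases before the start site. Of 32851 promoters, 12 (0.0365%) held ERSE-II, and Herpud1 was the only one of the 10 genes among them. The capitals of Calr are ERSE, searched as CCAAT, 9 bases of any kind and CCACG, read here on the opposite strand. ERSE was found in 39 promoters (0.119%). The first capital run of Herpud1 and that of Chac1 are the composite element of ATF4 and C/EBP proteins, searched as TGATGNAA on both strands. It was found in 1304 promoters (3.97%) and in 4 of the 10 genes, Herpud1, Chac1, Asns and Trib3. The promoter of Pdia4 held neither ERSE nor ERSE-II, only the core CCACG, which 32.8% of all promoters and 7 of the 10 genes hold and which is also part of ERSE and ERSE-II. TGACGTGG, the core bound by XBP1, was found in 0 of the 10 genes and in 0.676% of all promoters. A match describes the letters in this window and not a bound site.

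The mean levels over the 9 libraries ran from 289 FPKM for Calr through 206 for Herpud1, 57.4 for Pdia4, 42.7 for Xbp1, 30.2 for Atf4, 7.82 for Ddit3, 3.89 for Sdf2l1 and 1.03 for Asns to 0.201 for Trib3 and 0.142 for Chac1. Calr stood above 98.2% of the tested genes and Chac1 above 2.65%. In this order the library ranges of Calr and Herpud1, of Pdia4 and Xbp1, and of Trib3 and Chac1 overlapped, while those of the other neighbours did not. The least abundant genes were read from few fragments: Trib3 rested on an estimated 6.39 to 18.2 fragments per library and Chac1 on 2.20 to 9.92, against 6434 to 12379 for Herpud1. Estimated depth lay between 24.8 M and 30.9 M fragments per library, and mitochondrial mRNAs held 26.9% to 32.8% of the mRNA FPKM. Depth of this kind covers Herpud1, Calr and Pdia4 well and cannot show moderate changes of Trib3 or Chac1.

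**Figure D1:**
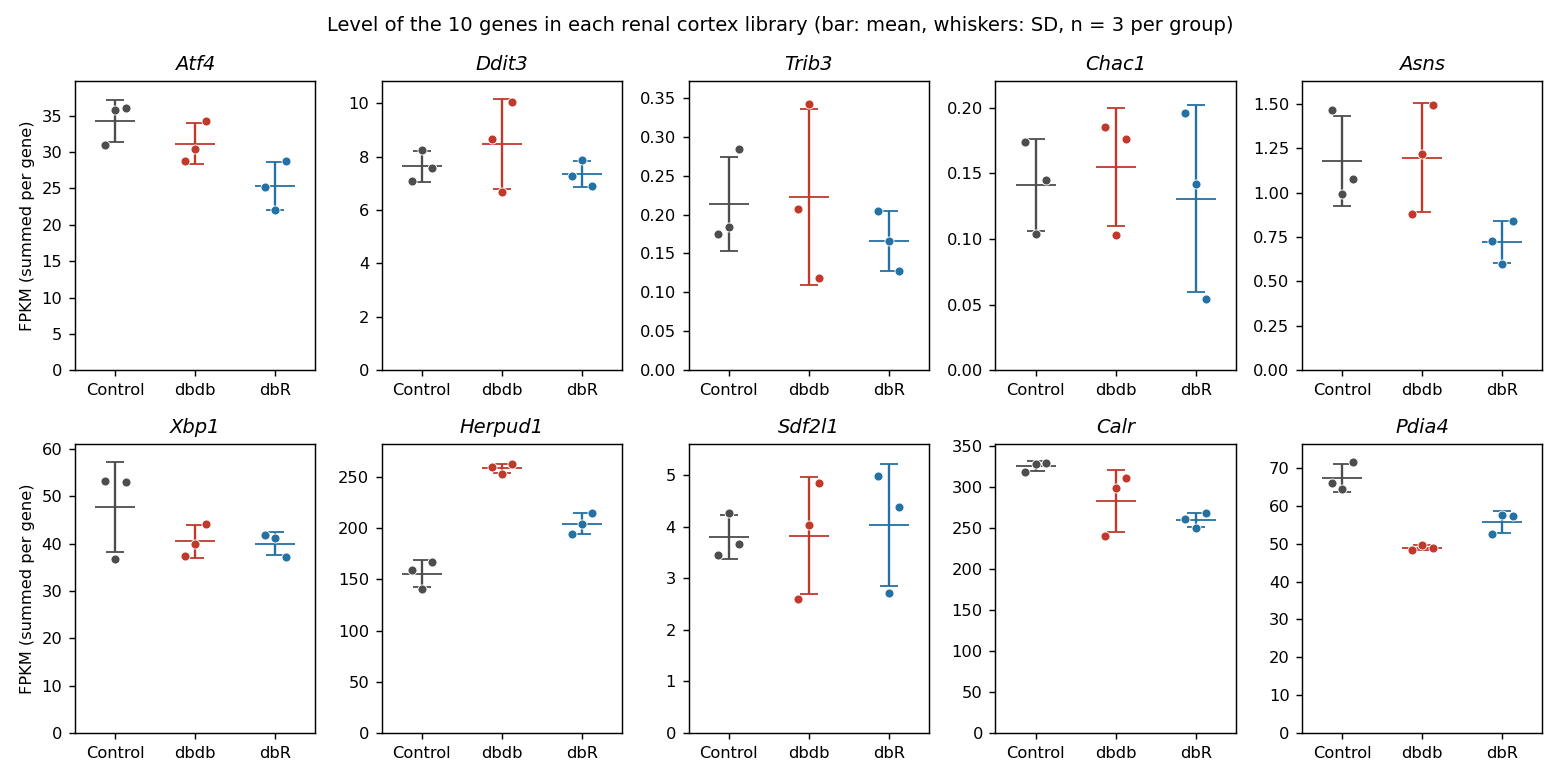
FPKM of each of the 10 genes (vertical axis from 0, a scale of its own in each panel) in the control, dbdb and dbR libraries; points are libraries, wide bars the mean and whiskers the SD (n = 3). Herpud1 separates all 3 groups, with 141 to 167 FPKM in control, 253 to 262 in dbdb and 194 to 215 in dbR, Pdia4 separates them in the opposite order, and the groups of Ddit3, Trib3, Chac1, Xbp1 and Sdf2l1 overlap.

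Among the 10 genes, 2 were called at an adjusted p under 0.05 in dbdb vs. control (limma, Benjamini-Hochberg over all genes), Herpud1 higher and Pdia4 lower, where 26.4% of all tested genes were called. In dbR vs. dbdb, limma called 0 of the 10, against 0.743% of all genes, and 4 had an unadjusted p under 0.05 (Herpud1, Pdia4, Asns and Atf4), against 17.5% of all genes. In dbR vs. control, 4 were called, Herpud1 higher and Atf4, Calr and Pdia4 lower, against 24.1% of all genes. The 3 comparisons share libraries, so they are given side by side and not as independent evidence. Groups without any overlap were seen for 3 of the 10 genes in dbdb vs. control, 4 in dbR vs. dbdb and 5 in dbR vs. control, where 42.4%, 22.7% and 41.9% of all tested genes had such groups.

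**Figure D2:**
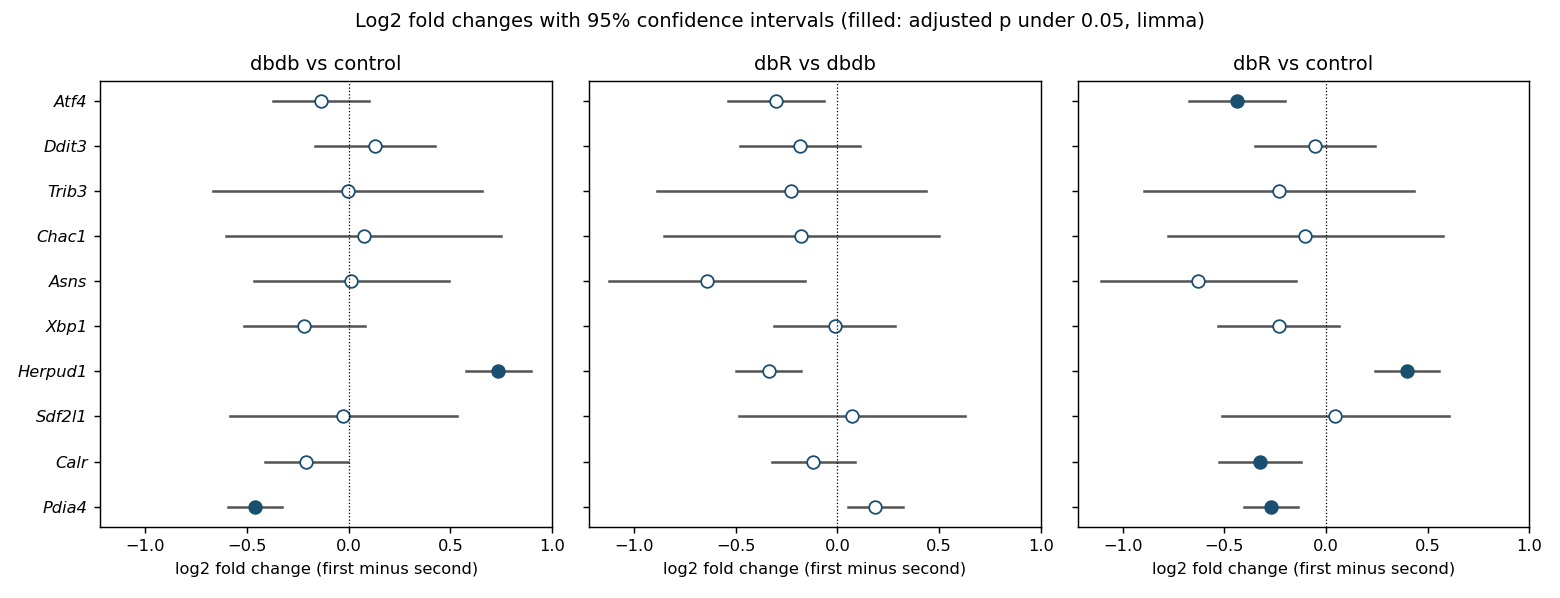
Log2 fold change (horizontal axis, first group minus second) of each of the 10 genes in dbdb vs. control, dbR vs. dbdb and dbR vs. control; lines are 95% confidence intervals from limma and filled points have an adjusted p under 0.05. Herpud1 (0.74) and Pdia4 (-0.46) are filled in dbdb vs. control, no point is filled in dbR vs. dbdb, and the intervals of Trib3 and Chac1 are the widest.

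Herpud1 encodes an ER membrane protein with a ubiquitin-like domain that organises the ERAD ubiquitin ligase complex (chr8:94386438-94395377, plus strand, GRCm38). FPKM values were 159, 141 and 167 for the control mice, 259, 253 and 262 for the vehicle-treated db/db mice and 194, 205 and 215 after rosiglitazone. Every dbdb library stood above every dbR library, and every dbR library above every control library. The level rose by 66.1% in dbdb vs. control (155.6 ± 13.2 against 258 ± 4.58 FPKM, SD, n = 3), a log2 fold change of 0.74 (SE 0.071, adjusted p = 0.000109). The dbR mean was 20.8% below that of dbdb (log2 fold change -0.34, 95% interval -0.50 to -0.18), with an unadjusted p of 0.000803 and an adjusted p of 0.0593, which missed the threshold. This contrast passed after 3 of the other scalings, with adjusted p of 0.0487 after scaling to the 75th percentile, 0.0139 after quantile normalization and 0.0145 with mitochondrial genes left out. Over all 20 alternatives its adjusted p ran from 0.0139 to 0.209 and its log2 fold change from -0.40 to -0.30. Against control, dbR remained higher by 31.5% (log2 fold change 0.40, adjusted p = 0.00334).

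Cufflinks divided Herpud1 between a pair of transcripts, Herpud1-205 with 90.7% of the FPKM and Herpud1-201 with 9.27%. Herpud1-205 was 141 ± 12.5 FPKM in control, 236 ± 0.762 in dbdb and 185 ± 11.2 in dbR (SD, n = 3), and Herpud1-201 was 14.8 ± 1.28, 22.7 ± 4.01 and 19.9 ± 2.36. Both were highest on average in dbdb. The annotation also holds an antisense gene, Gm15890, across Herpud1. The libraries are directional, but how strand entered the FPKM is not given in the sources used here.

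Pdia4 encodes ERp72, a protein disulfide isomerase that forms and rearranges disulfide bonds in the ER lumen (chr6:47796141-47813430, minus strand). It was read at 66.2, 64.5 and 71.7 FPKM in control cortex, at 48.2, 49.7 and 49.0 in dbdb cortex and at 52.6, 57.7 and 57.3 in dbR cortex. The dbdb libraries were the lowest, the control libraries the highest, and the 3 groups did not overlap, in the order opposite to that of Herpud1. Pdia4 fell by 27.4% in dbdb vs. control (log2 fold change -0.46, SE 0.060, adjusted p = 0.000522). The dbR mean was 14.0% above that of dbdb, with a log2 fold change of 0.19 that did not pass (95% interval 0.05 to 0.32, adjusted p = 0.154). In dbR vs. control it was 17.2% lower (log2 fold change -0.27, adjusted p = 0.00920).

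Herpud1 and Pdia4 are both raised by the unfolded protein response in many cells, so their levels were also set against each other within each library. A single scaling factor per library cannot change this ratio, though quantile normalization can. The ratio was chosen after their values were seen. The ratio of Herpud1 to Pdia4 FPKM was 2.40, 2.19 and 2.33 in control, 5.38, 5.10 and 5.36 in dbdb and 3.70, 3.55 and 3.75 in dbR. The ratio of Herpud1 to Hspa5, the gene of the luminal chaperone BiP, was 0.887, 0.835 and 0.966 in control, 2.30, 1.92 and 1.75 in dbdb and 1.69, 1.58 and 1.70 in dbR. Neither ratio overlapped between any pair of groups, and both were highest in dbdb. For Pdia4 this follows from the separate values, since the 2 genes separate the groups in opposite orders. That ratio therefore adds no evidence of its own.

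**Figure D3:**
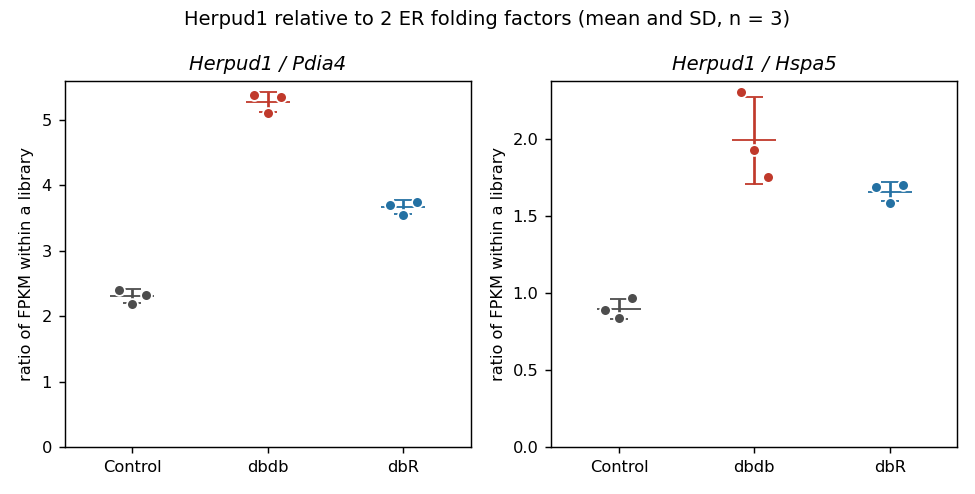
Ratio of Herpud1 FPKM to Pdia4 FPKM (left) and to Hspa5 FPKM (right) within each library of the control, dbdb and dbR groups; points are libraries, wide bars the mean and whiskers the SD (n = 3), and both vertical axes start at 0. The mean ratio to Pdia4 is 2.30 in control, 5.28 in dbdb and 3.66 in dbR.

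Calr encodes calreticulin, a calcium-binding lectin chaperone of the ER lumen (chr8:84841850-84846934, minus strand). The control libraries measured 318, 328 and 329 FPKM, those of dbdb mice 240, 299 and 311 and those of dbR mice 261, 251 and 268. All dbdb and dbR libraries lay below all control libraries, and dbdb and dbR overlapped. The difference did not pass in dbdb vs. control (log2 fold change -0.21, 95% interval -0.41 to -0.0050, adjusted p = 0.121), where dbdb replicate 1 was the lowest library of the 9. Without that library the log2 fold change was -0.09 (adjusted p = 0.333). Calr fell by 20.2% in dbR vs. control (log2 fold change -0.33, adjusted p = 0.0275). That call was lost without any single control or dbR library, with adjusted p between 0.0538 and 0.0857, and with mitochondrial genes left out (0.135).

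Sdf2l1 encodes an ER-resident partner of BiP cochaperones (chr16:17130138-17132383, minus strand). FPKM values were 3.46, 4.27 and 3.66 for the control mice, 2.61, 4.04 and 4.84 for the vehicle-treated db/db mice and 4.99, 2.71 and 4.39 after rosiglitazone. The groups overlapped in all pairs and the spread was wider in dbdb and dbR than in control, with an SD of 1.13 and 1.18 against 0.424 FPKM. Between dbdb and control the log2 fold change was -0.03 (95% interval -0.58 to 0.53, adjusted p = 0.952).

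Xbp1 encodes the transcription factor made active by the IRE1 splice (chr11:5520659-5525893, plus strand). It was read at 53.3, 36.7 and 53.0 FPKM in control cortex, at 37.3, 40.0 and 44.1 in dbdb cortex and at 41.7, 41.2 and 37.2 in dbR cortex. Control replicate 2 stood apart at the bottom of the control group, and the control group overlapped the others through it, while dbdb and dbR overlapped each other without it. The differences did not pass in dbdb vs. control (log2 fold change -0.22, adjusted p = 0.255) or in dbR vs. control (-0.23, adjusted p = 0.237). Without control replicate 2 both passed, at -0.40 for dbdb (adjusted p = 0.0116) and -0.41 for dbR (adjusted p = 0.0103). Between dbR and dbdb the log2 fold change was -0.01 (95% interval -0.31 to 0.28). The files list Xbp1-201 with 95.5% of the FPKM and do not separate the spliced from the unspliced form.

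Atf4 encodes the transcription factor at the centre of the integrated stress response (chr15:80255184-80257541, plus strand). The control libraries measured 31.0, 35.8 and 36.1 FPKM, those of dbdb mice 28.8, 30.4 and 34.3 and those of dbR mice 25.2, 22.04 and 28.7. All dbR libraries were below all libraries of the other groups, while dbdb and control overlapped. Atf4 fell by 26.1% in dbR vs. control (log2 fold change -0.44, SE 0.11, adjusted p = 0.0144). This call was lost without control replicate 3 (adjusted p = 0.0507) and with mitochondrial genes left out (0.0541). It was 18.7% lower in dbR vs. dbdb, which did not pass (log2 fold change -0.30, 95% interval -0.54 to -0.07, adjusted p = 0.183).

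Ddit3 encodes CHOP, a transcription factor of ER stress-induced cell death (chr10:127290774-127296288, plus strand). FPKM values were 7.10, 8.24 and 7.57 for the control mice, 8.67, 6.69 and 10.03 for the vehicle-treated db/db mice and 7.29, 7.87 and 6.89 after rosiglitazone. The groups overlapped in every pair, and the dbdb libraries spread most, with an SD of 1.68 FPKM. The log2 fold change was 0.13 in dbdb vs. control (95% interval -0.16 to 0.43, adjusted p = 0.506) and -0.18 from dbdb to dbR (adjusted p = 0.510). Ddit3 overlaps Mars on the opposite strand, so its value can depend on how strand entered the FPKM.

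Asns encodes asparagine synthetase, a classic ATF4 target (chr6:7675169-7693254, minus strand). It was read at 1.47, 0.992 and 1.07 FPKM in control cortex, at 0.880, 1.22 and 1.49 in dbdb cortex and at 0.726, 0.600 and 0.839 in dbR cortex. The dbR libraries were the lowest 3 of the 9 and dbdb and control overlapped. The level was 39.7% lower in dbR vs. dbdb (log2 fold change -0.64, 95% interval -1.12 to -0.16) and 38.7% lower in dbR vs. control (-0.63, 95% interval -1.11 to -0.15). Neither passed, with adjusted p of 0.170 and 0.0593. These differences depended on which transcripts were summed. Transcript Asns-207 was 0.567, 0.493 and 0.264 FPKM in 1 control and 2 dbdb libraries and near 0 in the other 6. On Asns-201 alone the dbR libraries were no longer the lowest 3. Asns-201, with 84.9% of the FPKM, averaged 0.960 ± 0.132 for control, 0.945 ± 0.259 for dbdb and 0.722 ± 0.120 for dbR (SD, n = 3). With the highest transcript alone the log2 fold change was -0.33 both in dbR vs. dbdb and in dbR vs. control.

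Trib3 encodes a pseudokinase induced by ATF4 and CHOP (chr2:152337422-152344032, minus strand), and Chac1 an enzyme that degrades glutathione (chr2:119351229-119354381, plus strand). Trib3 was between 0.118 and 0.342 FPKM in all 9 libraries and Chac1 between 0.0543 and 0.196. The highest Trib3 value was dbdb replicate 2 and the lowest dbdb replicate 3, so the dbdb group alone spanned all other libraries. From control to dbdb the log2 fold change was 0.00 for Trib3 (95% interval -0.67 to 0.66) and 0.07 for Chac1 (95% interval -0.60 to 0.75). At these levels the scale of log2(FPKM + 0.1) shrinks a difference, so these intervals cannot be set against the fold change of Herpud1.

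The pathway was read further through 6 lists of other genes. ER chaperones and folding enzymes had 11 of 23 genes called lower and 0 called higher in dbdb vs. control, beside 13.4% and 13.1% of all genes, and a median log2 fold change of -0.22 against 0.00 for all genes. Hspa5 fell from 179, 169 and 172 FPKM in control to 113, 132 and 150 in dbdb (log2 fold change -0.41, adjusted p = 0.0114). Hsp90b1, which encodes the ER chaperone GRP94, fell by 0.37 on the log2 scale (adjusted p = 0.00620), Pdia3, a disulfide isomerase that works with calreticulin, by 0.36 (0.00508), Sdf2, the paralogue of Sdf2l1, by 0.38 (0.00478), and Dnajc3, an inhibitor of eIF2α kinases, by 0.30 (0.00547). Hyou1, a nucleotide exchange factor of BiP, did not pass (-0.09, adjusted p = 0.555). No gene of the list was called higher as Herpud1 was.

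The size of these lower values depends on the scale. With mitochondrial genes left out and libraries brought to the same sum, the median of all genes moved to 0.15 in dbdb vs. control. Both steps were made wherever this setting is named. The chaperone list then had 2 of 23 genes called lower and a median of -0.06. At this setting 4461 of 14526 genes were called, 3492 of them higher, so 2 of 23 lies near the share called lower. Mitochondrial mRNAs held 28.2% to 30.0% of the mRNA FPKM in control and 28.2% to 30.1% in dbdb. Summed mRNA FPKM ran from 675346 to 730057 in control and from 594838 to 647995 in dbdb. Under quantile normalization 6 chaperone genes were called lower, and 0 were called higher under either of these settings. Pdia4 and Herpud1 were called in dbdb vs. control in the same direction in all 20 alternatives. Hspa5 and Hsp90b1 lost their call under quantile normalization and with mitochondrial genes left out. After scaling to the 75th percentile, 11 chaperone genes were called lower and 0 higher, with a median of -0.19.

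Of the 20 chaperone genes that matched a RefSeq promoter, 7 held ERSE (35%, against 0.119% of all promoters): Hspa5, Hsp90b1, Dnajc3, Canx, Pdia6, Creld2 and Ero1lb. They are named for the element and not for their values. Of these, 5 were called lower in dbdb vs. control and 0 higher (Hspa5, Hsp90b1, Dnajc3, Canx and Pdia6), beside 13.4% and 13.1% of all genes. In the whole chaperone list, of which they are part, 11 of 23 were called lower. A difference between its genes with and without ERSE was not tested. With mitochondrial genes left out none of the 7 was called lower (0), and under quantile normalization 2 were, Dnajc3 and Pdia6. Outside the chaperone list, ERSE was also held by Calr, at -0.21, and by the ERAD genes Derl3, at 0.39 (adjusted p = 0.524), and Syvn1, at 0.21 (0.135), and none of them passed. Herpud1, the single ERSE-II gene of the 10, rose. The chaperone list held 1 ERSE-II gene, Dnajb11, at -0.17 (adjusted p = 0.135).

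Genes of ERAD, the process in which Herpud1 acts, had 8 of 21 called lower and 0 higher in dbdb vs. control, beside 13.4% and 13.1% of all genes, with a median of -0.16. Vcp, the ATPase that extracts proteins from the ER membrane, fell by 0.33 (adjusted p = 0.00328), Edem1 and Edem3, which route glycoproteins to degradation, by 0.32 (0.00306) and 0.31 (0.00286), and Fam8a1, a partner of the same ligase complex as Herpud1, by 0.28 (0.00375). Herpud1 therefore moved against the called genes of its own process. With mitochondrial genes left out, 2 ERAD genes were called lower and 1 higher with a median of -0.0027 (-0.083 under quantile normalization), and of the named 4 only Vcp kept its call. At that setting 4461 of 14526 genes were called, 3492 of them higher. The count of lower ERAD genes lies near the share of all genes there, and that of higher ones below it. In dbR vs. control, 12 of the 21 were called lower, beside 11.8% of all genes, and in dbR vs. dbdb 0, beside 0.179%.

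Of 15 tested genes of the sensors and eIF2 machinery, 3 were called higher and 2 lower in dbdb vs. control, with a median of 0.01. With 13.1% of all genes called higher and 13.4% lower, these counts lie near those of all genes and are not a result about the list. Ern1, the IRE1α gene, was 6.07, 6.52 and 6.34 FPKM in control and 8.21, 8.24 and 7.12 in dbdb (log2 fold change 0.31, adjusted p = 0.0303), a call that 7 of 20 alternatives lost. Eif2ak4, the GCN2 gene, rose by 0.42 (adjusted p = 0.00653) and Ppp1r15a, whose product GADD34 restores translation, by 0.50 (0.0152), a call lost without control replicate 3. Creb3l1, an ER-anchored transcription factor of secretory cells, was 1.17, 1.17 and 1.24 in control, 0.608, 0.486 and 0.714 in dbdb and 1.38, 1.20 and 0.993 in dbR. It fell in dbdb (log2 fold change -0.89, adjusted p = 0.00396) and its higher level in dbR vs. dbdb missed the threshold (0.88, adjusted p = 0.0509). That contrast passed under 4 of its 19 alternatives, with adjusted p of 0.0461 with a pseudocount of 1, 0.0392 after quantile normalization, 0.0422 after scaling to the 75th percentile and 0.0403 without dbdb replicate 3, and reached 0.192 at most. Eif2ak3, the PERK gene, was at 0.09 (adjusted p = 0.374) and Atf6 at -0.11 (0.224). The list had 1 gene called higher without control replicate 3 or with the highest transcript of each gene. It had 5 called higher with mitochondrial genes left out, where 3492 of 14526 genes were called higher. It had 1 called lower under most alternatives, among them the omission of any single control or dbdb library and a fit with the replicate number as a block.

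Genes downstream of eIF2α and ATF4 were called in both directions. Among ISR regulators and effectors, 5 of 13 tested genes were called higher and 1 lower in dbdb vs. control, beside 13.1% and 13.4% of all genes, with a median of 0.52 that was 0.23 with a pseudocount of 1. The count of lower genes was 0 without any single control library, without dbdb replicate 2 or 3, with the replicate number as a block, in a fit without the variance trend or to the 6 libraries compared, under quantile normalization and with mitochondrial genes left out. Cebpb, a partner of ATF4, was 9.73, 6.42 and 10.2 FPKM in control, 19.6, 21.6 and 33.4 in dbdb and 11.98, 10.7 and 19.9 in dbR (log2 fold change 1.48 in dbdb vs. control, adjusted p = 0.00335). Gdf15, a secreted stress cytokine, rose by 1.17 (adjusted p = 0.0105), Jdp2, an AP-1 repressor, by 0.77 (0.00254), and Sesn2, a regulator of amino acid sensing, by 0.68 (0.00124). Several of these are also induced by pathways other than ATF4. Atf3 did not pass (0.21, adjusted p = 0.704), at 0.152 to 0.846 FPKM over the 9 libraries, and Fgf21 was below the filter.

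Of 18 tested amino acid and one-carbon targets of ATF4, 6 were called higher and 3 lower in dbdb vs. control. Over all genes 13.1% and 13.4% were called, so that the count of lower genes is close to that of all genes. The median log2 fold change of the list was 0.24, with 14 genes above 0 and 4 below. The 3 called lower were Slc1a4, a neutral amino acid exchanger (log2 fold change -1.60, adjusted p = 0.000147), Slc6a9, a glycine transporter (-1.08, 0.000138), and Cbs, the first enzyme of transsulfuration (-0.92, 0.000171). Slc3a2, the shared heavy chain of amino acid exchangers and 1 of the 6 called higher, rose by 0.67 (0.00110). Aminoacyl-tRNA synthetases, another common ATF4 target group, had 1 of 13 called lower (Sars, -0.28, adjusted p = 0.0128) and 0 higher, no more than the 13.4% and 13.1% of all genes. With the highest transcript of each gene alone, Eif2ak4, Ern1, Gdf15, Jdp2, Slc1a4 and Sars lost their call, and the ISR list had 3 genes called higher. With mitochondrial genes left out, 8 of 13 ISR regulators, 8 of 18 amino acid targets and 2 of 13 aminoacyl-tRNA synthetases were called higher, and Sars again was not called. At that setting 3492 of 14526 genes were called higher, so the count of synthetases is no more than that share.

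**Figure D4:**
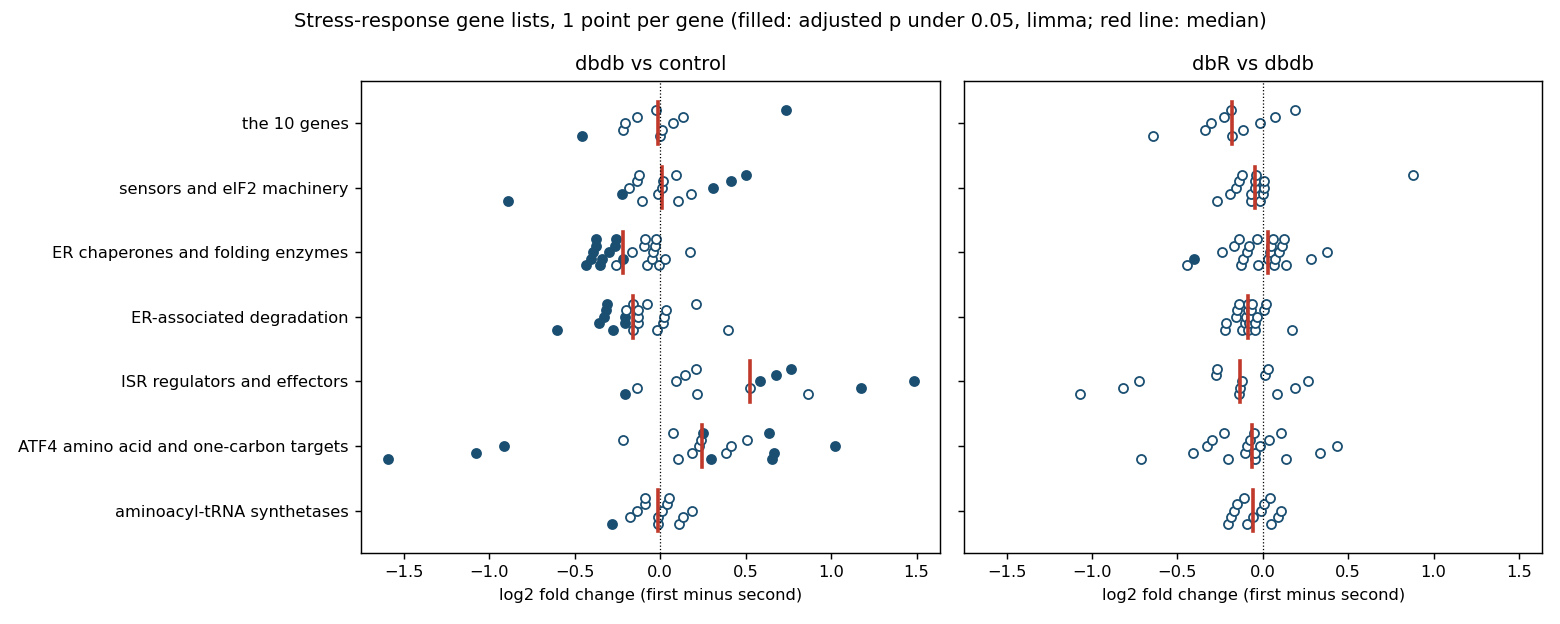
Log2 fold change (horizontal axis) of every tested gene of the 10 described genes and of 6 stress-response lists in dbdb vs. control (left) and dbR vs. dbdb (right); 1 point is 1 gene, filled points have an adjusted p under 0.05 in limma, and red lines are medians. In dbdb vs. control the filled chaperone (11) and ERAD (8) points all lie below 0, most filled ISR regulators lie above 0 (5 of 6), and 1 chaperone, Dnajb9, is filled in dbR vs. dbdb.

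Between dbR and dbdb, limma called 1 gene, Dnajb9, among the 15, 23, 21, 13, 18 and 13 tested genes of the 6 lists. Of all genes 0.179% were called lower and 0.564% higher. A single call in the lists lies near these shares and is not a result about the lists. Dnajb9 encodes ERdj4, a BiP cochaperone and a target of XBP1. It was 32.01, 30.6 and 31.5 FPKM in control, 30.5, 28.6 and 33.3 in dbdb and 22.8, 23.6 and 23.4 in dbR, so the dbR libraries lay below all others. It fell by 0.40 in dbR vs. dbdb (adjusted p = 0.0282), a call that 7 of 20 alternatives lost. These were the omission of dbdb replicate 1 or of any dbR library, a replicate block, no variance trend and a fit to the 6 libraries compared. Against control it fell by 0.43 (adjusted p = 0.00107).

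For each of the 10 genes, the genes with the most similar pattern over the 9 libraries were sought among 11615 genes with a mean of at least 1 FPKM, by the root mean square difference of values scaled to an SD of 1 per gene. Herpud1 was closest to Per2, a gene of the circadian clock, with a difference of 0.128, and then to Inpp5b (0.143). Per2 averaged 7.17 FPKM in control, 16.6 in dbdb and 11.8 in dbR. Pdia4 was closest to Pecr and Erich4 (both 0.151). Calr was closest to Trappc8 (0.249) and Ywhah (0.279), Atf4 to Necap1 (0.290) and Ppip5k2 (0.293), Asns to Usp24 (0.291) and Dcaf12 (0.303), and Xbp1 to Arfip2 (0.326) and Dnajc25 (0.454). The remaining 4 genes had no neighbour nearer than Gm17349 for Sdf2l1 (0.341). The closest of so many genes is near by selection, and the values are given as a description.

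Markers of several cell types differed between the groups, and in bulk cortex fewer cells of a type and less RNA per cell cannot be told apart. Proximal tubule markers were abundant in every library, with a summed 2568 to 2819 FPKM of 6 markers in control, 2473 to 3099 in dbdb and 2652 to 2816 in dbR. The sum was dominated by Slc34a1, and 2 of the 6 were called in dbdb vs. control, Slc22a6 lower (262 to 282 FPKM in control, 170.2 to 204 in dbdb and 162 to 179.5 in dbR) and Slc5a2 higher (198 to 233, 240.2 to 316 and 232 to 286). Of all genes 26.4% were called in dbdb vs. control, 13.4% lower and 13.1% higher, so 2 of 6 lies near that share. The marker counts of this contrast below stand beside the same shares. In dbdb vs. control, 4 of 4 macrophage markers (25.2 to 32.5 FPKM in control, 11.1 to 13.6 in dbdb, 16.0 to 18.1 in dbR) and 3 of 3 endothelial markers (80.2 to 88.5, 56.2 to 60.5 and 80.5 to 96.2) were called lower. Of the 4 collecting duct markers 3 were called higher (84.7 to 104.5, 123.1 to 211 and 134 to 153), and so were both markers of the distal convoluted tubule (154 to 173, 281 to 308 and 315 to 355). Podocyte markers summed to 60.8 to 70.2 FPKM in control, 72.9 to 76.6 in dbdb and 65.3 to 80.7 in dbR, and 2 of 3 were called higher in dbdb vs. control. Markers of fibroblasts and mural cells summed to 11.3 to 13.7, 10.7 to 13.9 and 18.1 to 21.9, with 0 of 3 called in dbdb vs. control. In dbR vs. dbdb 1 of these 3, Pdgfrb, was called higher, and so were 2 of 3 endothelial and 1 of 4 collecting duct markers. Of all genes 0.564% were called higher in dbR vs. dbdb, and no marker of the other types was called there. Sums of the 2 thick ascending limb markers overlapped in all pairs of groups, and 0 were called in dbdb vs. control. Markers of B and plasma cells, whose ER is rich in chaperones, summed to 2.96 to 5.84 FPKM in control, 0.851 to 1.89 in dbdb and 2.38 to 2.83 in dbR, and 2 of 4 tested were called lower in dbdb. None of the markers of these types was at 0 throughout a group. The 3 adipocyte markers summed to 0.188 to 0.756 FPKM in control, 0 to 0.0757 in dbdb and 0.0658 to 0.671 in dbR, with Adipoq and Plin1 at 0 in all dbdb libraries. The 3 adrenal cortex markers summed to 0.597 to 0.943, 1.10 to 1.37 and 0.698 to 1.26, nearly all of it from Star, while Cyp11a1 and Cyp11b1, which define that tissue, were at 0 in every control and dbdb library. For both types dbdb did not overlap control, and 0 of the tested markers were called in dbdb vs. control. Their part in the values of Herpud1, Pdia4, Calr and the chaperone list was not tested.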

How the data were processed

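Values were the FPKM that the authors deposited for each mRNA transcript of 9 renal cortex libraries (3 control, 3 dbdb, 3 dbR). The authors depleted ribosomal RNA, made directional libraries, aligned read pairs with TopHat2 2.0.9, assembled with Scripture and Cufflinks 2.1.1 on GRCm38.p2 and computed FPKM with Cufflinks. Here FPKM was summed per gene. FPKM holds no counts, so depth was estimated from the steps between low values of genes with 1 transcript. Genes with a mean of at least 0.1 FPKM (14537) were tested on log2(FPKM + 0.1), a scale that understates changes of low genes, with limma 3.58.1 (R 4.3.3), variance trend on, in 1 model of 9 libraries, two-sided, with Benjamini-Hochberg adjustment over all genes within a contrast. Calls are at an adjusted p under 0.05. The fit was tested on simulated data.

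The 10 genes and the lists were chosen with earlier results of these data known. Named list genes are up to 4 per list with the smallest adjusted p among those called in each contrast with dbdb, and Hspa5, Hsp90b1, Hyou1, Dnajb9, Atf3, Eif2ak3, Ern1, Atf6 and Ppp1r15a; Dnajb11 and the genes with ERSE are named for their promoters, and single cell type markers were named after their values were seen. The lists counted the 10 genes separately. Coordinates of genes are from GENCODE on GRCm38 and promoters from RefSeq (GRCm38.p6). Alternatives were other pseudocounts, filters, scalings and models, the highest transcript of each gene, a replicate block and each library left out. The lncRNA files were not used. Python 3.11.15, pandas 2.3.3, numpy 2.4.6 and matplotlib 3.10.9 were used for the other steps.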

Additional observations from a re-analysis of the deposited data

How the results depend on the processing

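The counts of called genes among the 10 were 2 in dbdb vs. control, 0 in dbR vs. dbdb and 4 in dbR vs. control. With a replicate block they were the same 2, 0 and 4 and no call of the 10 genes changed. The replicate block was not part of the reported fit: the labels do not say that equal numbers mark related mice, the correlations of same-numbered deviations from the group means ran from -0.17 to 0.06 (other pairs -0.11 to 0.17), and not every library correlated best with its own number. Over all genes the block moved the calls from 3840, 108 and 3497 to 3345, 23 and 3030. For dbR vs. dbdb the count was 1 (Herpud1) after scaling to the 75th percentile, after quantile normalization and with mitochondrial genes left out. In dbR vs. control it was 2 with mitochondrial genes left out. With each library left out in turn it ran from 2 to 3 in dbdb vs. control, stayed at 0 in dbR vs. dbdb and ran from 2 (without control replicate 3) to 5 in dbR vs. control. Asns in dbR vs. control passed under quantile normalization (adjusted p = 0.0226), in a fit to the 6 libraries compared (0.0489) and without dbdb replicate 1 or 3 (0.0394 and 0.0468). Calr in dbR vs. control missed under quantile normalization (0.0637).

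Changes of sign were seen for 13 differences, which passed under 0 of the settings. In dbdb vs. control the log2 fold change of Atf4 was 0.021 and that of Sdf2l1 0.13 with mitochondrial genes left out. That of Trib3 was 0.0072 with a pseudocount of 1, 0.012 after scaling to the 75th percentile, 0.0095 after quantile normalization and 0.10 with mitochondrial genes left out. That of Asns was -0.058 after quantile normalization and -0.043 with the highest transcript alone. Between dbR and dbdb, Xbp1 was at 0.0093 after scaling to the 75th percentile. In dbR vs. control, Ddit3 was at 0.040 with mitochondrial genes left out and Sdf2l1 at -0.034 after quantile normalization. Leaving out single libraries gave in dbdb vs. control -1.86e-06 to 0.29 for Ddit3, -0.26 to 0.25 for Trib3, -0.040 to 0.23 for Chac1, -0.15 to 0.20 for Asns and -0.21 to 0.22 for Sdf2l1. It gave in dbR vs. dbdb -0.071 to 0.050 for Xbp1, -0.48 to 0.031 for Trib3, -0.38 to 0.087 for Chac1 and -0.17 to 0.33 for Sdf2l1, and in dbR vs. control -0.10 to 0.0016 for Ddit3, -0.31 to 0.16 for Chac1 and -0.13 to 0.30 for Sdf2l1. The cause was not tested.

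Over all genes, calls in dbR vs. dbdb were 108 and ran from 18 without the variance trend, 22 with the 6 libraries compared, 31 with no filter and 49 with the highest transcript to 166 with a mean of at least 1 FPKM, 203 after scaling to the 75th percentile and 234 after quantile normalization, and from 2 (without dbR replicate 2) to 141 with a library left out. The setting with mitochondrial genes left out also brought the libraries to the same sum. With it, the share of calls that were higher went from 49.5% to 78.3% in dbdb vs. control and from 75.9% to 48.6% in dbR vs. dbdb. In dbR vs. control that share went from 51.1% to 70.5%, where scaling to the 75th percentile gave 62.3%. Few fragments limit Trib3 and Chac1 under every setting, and 3 mice per group limit all values.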

Other observations

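Immediate-early genes, which respond within minutes to many stimuli, had 6 of 10 tested members called higher and 0 lower in dbdb vs. control, beside 13.1% and 13.4% of all genes, with a median log2 fold change of 0.89. Dusp1 was 15.9, 17.3 and 19.8 FPKM in control, 51.0, 42.3 and 61.4 in dbdb and 31.0, 39.8 and 56.6 in dbR, and Jun, Ier3 and Btg2 were called higher as well. Cytosolic heat shock genes had 3 of 7 called lower in dbdb vs. control, beside 13.4% of all genes, Hsph1 (-0.85), Hspa8 (-0.60) and Dnajb1 (-0.59), and the same number in dbR vs. control, beside 11.8%. Hsp90aa1, named here after its values were seen, was 143 and 199 FPKM in control replicates 1 and 2 but 2.14 in control replicate 3, and 98.0 to 103 in dbdb. Without control replicate 3 it was called lower too (-0.75, adjusted p = 0.00371, limma), and the list had 4 genes called lower and a median of -0.49 in place of 0.15.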
